A study of Rattus norvegicus with 36 samples.

Results

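The genes of the mitochondrial respiratory chain and of the ATP synthase were followed in whole rat kidney early after ischemic and nephrotoxic injury. Every gene was taken whose symbol in the platform annotation starts with Nduf, Uqcr, Atp5 or Cox4 to Cox8, or is Sdha, Sdhb, Sdhc or Sdhd. This gave 43 of the 6444 genes named on the array, each with 1 probe. They comprise 16 genes under complex I names, 4 assembly factors of complex I, 2 subunits of complex II, 3 of complex III, 6 genes under complex IV names and 12 of the ATP synthase. The rule used names only and no measured value. Sdha, Sdhc, Ndufs1, Ndufv1, Uqcrc1, Uqcrfs1, Cox4i2, Cox5b and Atp5if1 were not analysed here. A probe annotated to a member together with a neighbouring symbol was left out.

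Complexes I and II pass electrons from NADH and succinate to ubiquinone, complex III passes them on to cytochrome c, and complex IV hands them to oxygen. Complexes I, III and IV pump protons across the inner mitochondrial membrane, and the ATP synthase uses that gradient to make ATP. The proximal tubule and the thick ascending limb of the kidney are rich in mitochondria and meet most of the cost of salt transport in this way. All members measured here are encoded in the nucleus.

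The series holds 36 CodeLink arrays of kidney RNA from 31 male rats aged 6 to 8 weeks. Strain is not given in the labels. Ischemia was bilateral and lasted 40 min, and kidneys were taken 2 h (4 rats) or 8 h (3 rats) later. A further 3 rats had the same ischemia, received 50 µg of alpha-MSH (a melanocortin peptide, given intravenously) and were studied at 2 h. Mercuric chloride, a nephrotoxic metal salt, was given subcutaneously at 4 mg/kg and studied at 2 h (3 rats) and 8 h (3 rats). Cisplatin, a nephrotoxic platinum drug, was given intraperitoneally at 20 mg/kg and studied at 2 h (3 rats). Sham-operated rats (3) had the 40 min operation and were studied at 8 h. Volume-depleted rats (4) received 20 mg/kg of the diuretic furosemide intraperitoneally at 0 and 8 h with a sodium-deficient diet and were studied at 24 h. Normal rats (5) had no treatment. In 5 of the rats 2 RNA aliquots were put on separate arrays, and these were averaged, so that n counts rats.

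Levels are log2 values of intensity divided by the array's median, so that 0 is the median probe and 1 unit is a 2-fold difference. Most members are bright: 29 of 43 lay above 16 times the array median on average over rats, as did 3.7% of all probes, and 37 lay above the median. The labels give 2 array lots without tying arrays to them, and the assignment used here comes with the definition of the gene set. Sham, cisplatin and 8 h mercuric chloride rats were set against normal rats 11 and 12, and all other groups against normal rats 1 to 3. Between the normal rats of the lots the members differed by a median of -0.14, with 32 of 43 lower in lot 2. The comparisons with normal rats share those rats. A gene is said to have risen or fallen where limma's adjusted p, over all probes of a comparison, was under 0.05, and errors of changes are standard errors.

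Of the arrays, 3 were doubted. The array of rat 3 of the 8 h ischemia group had 1.65% of probes at the floor and correlated with the median array at 0.918, against 4.34 to 12.9% and 0.959 to 0.99 on the arrays other than these 3. Normal rat 1 (r = 0.980, 8.72% at the floor) and the first of the arrays of volume-depleted rat 1 (r = 0.974, 6.82%) lay inside these ranges. By these measures they did not stand apart, and the pattern they shared with ischemia rat 3 over the members is given below. They were set aside with it in a second reading, and these 3 are called the doubted arrays. Setting them aside rests on values of these same data, and leaving out deviating arrays narrows the spread. The second reading is therefore a description and no independent check. All 14 proximal tubule markers of a list of 20 that were on the array were above the floor in most rats, so the defining genes of that segment were present.

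Promoter sequence is shown for 5 of the 16 members whose window held a short motif, whether or not they later fell. The windows are RefSeq's for GRCr8, 250 bases before to 50 after the gene's start, on the gene's strand, and 39 of 43 members had one. The motifs searched, on both strands, were CCGGAAG (the ETS core bound by the GABP family), GCGCATGCG (the core of the NRF1 element) and AAGATGGCG (the YY1 core). None contains another. The ETS core was found in 9 of the 39 windows (23.1%) and in 8.75% of all 33469 windows of that length, the NRF1 core in 4 (10.3%) and 1.52%, and the YY1 core in 5 (12.8%) and 1.73%. Any of these motifs was found in 16 of the 39 windows, and the other windows held none. In the sequences capitals mark a match. Sdhd (chr8:59850592-59850891, minus strand), Uqcrc2 (chr1:184598990-184599289, plus strand) and Ndufb7 (chr19:41477242-41477541, minus strand) were lower 8 h after ischemia. Cox4i1 (chr19:65630133-65630432, plus strand) did not pass the test there. Ndufaf4 (chr5:43401545-43401844, plus strand), which carries the NRF1 core, was above its normal mean there in 2 of 3 rats. The choice of these 5 was made after their values were seen.
Sdhd: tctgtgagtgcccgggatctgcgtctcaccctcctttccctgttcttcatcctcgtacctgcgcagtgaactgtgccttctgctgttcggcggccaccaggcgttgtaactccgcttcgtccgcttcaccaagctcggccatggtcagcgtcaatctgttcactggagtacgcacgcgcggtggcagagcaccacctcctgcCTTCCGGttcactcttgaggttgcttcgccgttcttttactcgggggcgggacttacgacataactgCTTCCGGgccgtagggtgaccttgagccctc
Uqcrc2: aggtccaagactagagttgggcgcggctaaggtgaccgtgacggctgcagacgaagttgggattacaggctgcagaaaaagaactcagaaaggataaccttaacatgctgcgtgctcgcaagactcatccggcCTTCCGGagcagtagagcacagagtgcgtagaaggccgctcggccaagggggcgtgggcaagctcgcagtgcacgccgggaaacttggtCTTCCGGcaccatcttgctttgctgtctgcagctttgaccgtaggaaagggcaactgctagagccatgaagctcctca
Ndufb7: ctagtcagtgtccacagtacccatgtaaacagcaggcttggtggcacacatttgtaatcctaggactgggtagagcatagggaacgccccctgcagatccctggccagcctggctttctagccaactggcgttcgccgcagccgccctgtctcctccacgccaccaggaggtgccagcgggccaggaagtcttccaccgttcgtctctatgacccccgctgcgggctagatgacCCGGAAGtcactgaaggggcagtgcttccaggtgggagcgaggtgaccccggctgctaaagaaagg
Cox4i1: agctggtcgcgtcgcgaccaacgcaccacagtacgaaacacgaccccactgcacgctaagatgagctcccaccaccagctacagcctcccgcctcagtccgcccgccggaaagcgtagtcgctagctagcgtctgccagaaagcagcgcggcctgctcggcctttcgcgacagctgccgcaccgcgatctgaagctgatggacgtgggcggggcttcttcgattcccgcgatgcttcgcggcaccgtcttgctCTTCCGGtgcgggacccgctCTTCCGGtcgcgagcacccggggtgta
Ndufaf4: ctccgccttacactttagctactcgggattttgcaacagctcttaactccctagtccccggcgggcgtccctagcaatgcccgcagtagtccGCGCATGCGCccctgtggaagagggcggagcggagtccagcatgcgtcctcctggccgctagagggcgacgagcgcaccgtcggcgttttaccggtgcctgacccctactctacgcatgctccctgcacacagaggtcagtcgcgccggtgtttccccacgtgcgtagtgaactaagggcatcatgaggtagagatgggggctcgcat
The Sdhd, Uqcrc2 and Cox4i1 windows hold the ETS core read on the opposite strand, at 2 places each, and the Ndufb7 window holds it at a single place on the gene's strand. The NRF1 core of Ndufaf4 matches on both strands, with overlapping matches. Of the 23 genes with a window that fell 8 h after ischemia, 6 held the ETS core, and of the other 16, 3 did. A match describes the letters of the window only.

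At 8 h after ischemia most of the set was lower. Of 43 members, 26 fell and 1 rose, against 20.9% of all 9468 probes tested that fell and 20.8% that rose. The median change over the members was -0.55 and over all probes 0.01, and 41 of 43 members (95.3%) were below their normal mean, as were 48.7% of all probes. Among called members only Atp5f1c fell by more than 2-fold. All 3 rats lay below all 3 normal rats for 16 members, which held for 17.5% of all probes. Bright probes as a class were lower too: among the other 336 probes above 16 times the array median 39.0% fell, with a median of -0.25, and among the 29 members as bright 65.5% fell, with a median of -0.55. In whole kidney RNA fewer cells of a type and less RNA per cell cannot be told apart. Fitted with only the groups compared, which leaves few rats for the spread, the count was 7 fallen and 0 risen. Shares of all probes are not given for this or the other alternative fits below, so their counts describe the calls only.

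**Figure D1:**
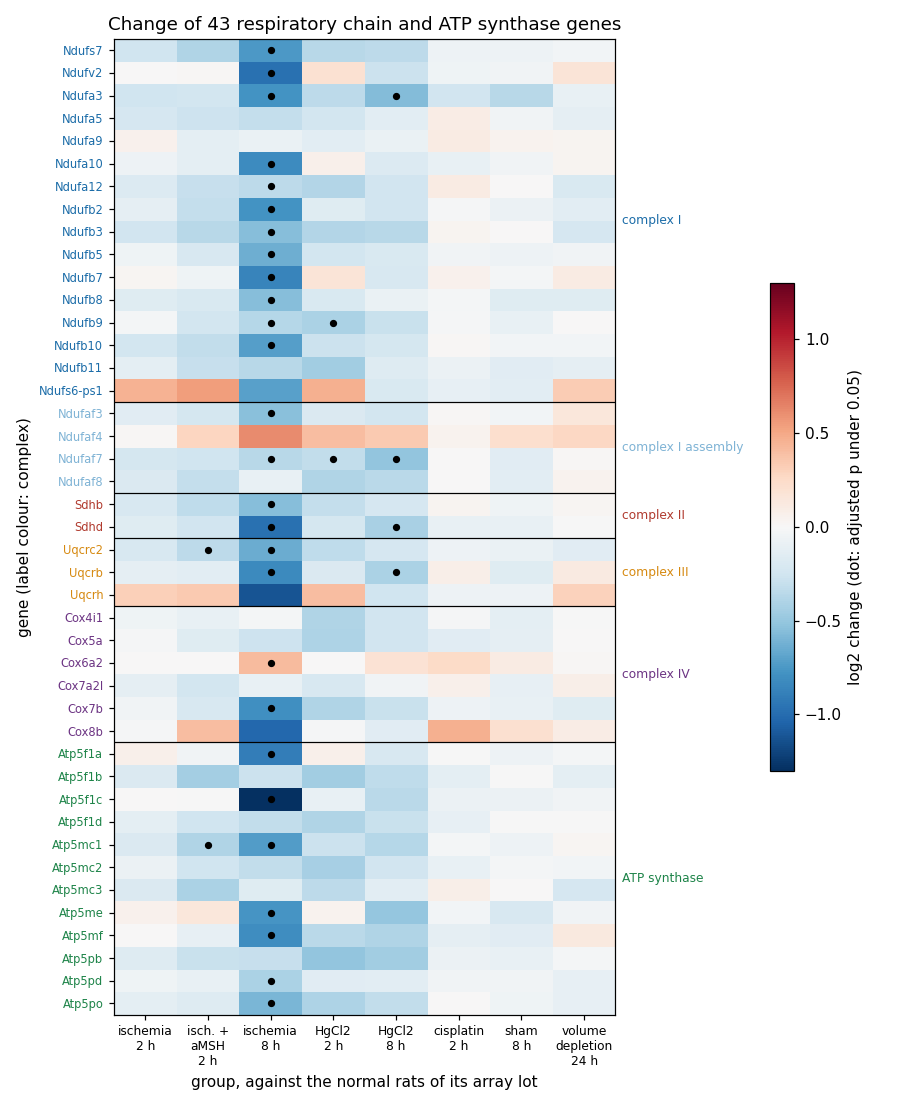
Log2 change of each of the 43 genes (down the side, ordered by complex) in 8 groups (along the bottom) against the normal rats of the same lot, as colour from blue (lower) to red (higher), with a dot where the adjusted p was under 0.05. The 8 h ischemia group has 27 dots, and the 8 h mercuric chloride group has 4.

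Complex I takes electrons from NADH. Of its 16 genes 12 fell 8 h after ischemia, with a median of -0.67 over the 16. Ndufv2, a core iron-sulfur subunit of the NADH-oxidising arm, was at 3.42, 3.42 and 1.92 in ischemia rats 1 to 3 and at 3.39, 4.23 and 4.06 in normal rats 1 to 3. Rat 3 was far below the others of its group, and the groups overlapped through normal rat 1. Its change was -0.97 ± 0.28, 1.96-fold lower (adjusted p = 0.00726), and it was -0.47 without ischemia rat 3 (adjusted p = 0.0766) and -0.72 without all doubted arrays (adjusted p = 0.000553). Ndufs7, another core iron-sulfur subunit, was at 3.44, 3.61 and 4.35 against 4.86, 4.53 and 4.26, and fell by 0.75 on the log2 scale (SE 0.16, adjusted p = 0.000472). Here rat 3 was the highest of its group and reached into the normal range.

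Ndufa10, an accessory subunit, was at 3.78, 3.84 and 3.22 in the ischemia rats and at 4.46, 4.51 and 4.34 in the normal rats. All ischemia rats were below all normal rats, and the change was -0.82 ± 0.13 (adjusted p = 9.62e-06). Ndufa3, an accessory subunit, was at 4.05, 4.40 and 3.86 against 4.92, 4.82 and 4.90. It changed by -0.78 ± 0.11 (adjusted p = 4.35e-06), with no overlap. Ndufb7, an accessory subunit of the membrane arm, was at 2.77, 2.85 and 1.59 against 2.99, 3.37 and 3.43. The change of -0.86 ± 0.22 (adjusted p = 0.00237) was -0.45 without rat 3 (adjusted p = 0.021) and -0.59 without the doubted arrays (adjusted p = 0.00185). The groups did not overlap. Its window with the ETS core is printed above.

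Other accessory subunits of the membrane arm moved the same way. Ndufb2 (-0.78), Ndufb10 (-0.72) and Ndufb5 (-0.63) also had no overlap between groups. Ndufb9 changed by -0.37 ± 0.12 (adjusted p = 0.0182), with 4.70, 4.87 and 5.20 against 5.51, 5.27 and 5.09, and lost its call without normal rat 1, at -0.26 (adjusted p = 0.12), without ischemia rat 1, at -0.26 (adjusted p = 0.115), or without ischemia rat 2, at -0.35 (adjusted p = 0.0514). Ndufb8 (-0.55), Ndufb3 (-0.55) and Ndufa12 (-0.34) also fell, and without rat 3 the last 2 were at -0.96 and -0.54. The genes that did not pass were Ndufb11 (-0.36), Ndufa5 (-0.31), Ndufa9 (-0.09) and Ndufs6-ps1 (-0.71 ± 0.65). Without rat 3 Ndufb11 was at -0.67 (adjusted p = 0.000276), Ndufa5 at -0.63 (adjusted p = 0.000274) and Ndufa9 at -0.07, and Ndufs6-ps1 turned to 0.33 (adjusted p = 0.673), its level in rat 3 being -1.62 against 1.32 and 1.70 in rats 1 and 2. Ndufs6-ps1 is annotated as a pseudogene of an accessory subunit, and its probe may not be told apart from the parent gene.

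Among the 4 assembly factors Ndufaf3 and Ndufaf7 fell. Ndufaf3 was at 1.29, 1.37 and 1.21 against 1.82, 1.83 and 1.86, with no overlap and a change of -0.54 ± 0.09 (adjusted p = 3.37e-05). Ndufaf7, a methyltransferase needed for complex I assembly, was at 1.49, 1.46 and 1.14 against 1.70, 1.74 and 1.74, a change of -0.36 ± 0.10 (adjusted p = 0.00518). With no lot term its change was -0.17 (adjusted p = 0.258), and with lot as a random block -0.22 (adjusted p = 0.123). Ndufaf8, another assembly factor, differed by -0.10 ± 0.19, or by -0.44 without rat 3 (adjusted p = 0.02). Ndufaf4 was at -0.39, -0.12 and -1.36 against -1.99, -0.87 and -0.83. Ischemia rats 1 and 2 were above every normal rat and rat 3 was not, for a difference of 0.61 ± 0.26 (adjusted p = 0.0633). Without the doubted arrays it rose by 0.59 (adjusted p = 0.000842), and without ischemia rat 3 by 0.97 (adjusted p = 0.00173).

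Complex II, which oxidises succinate and also serves the tricarboxylic acid cycle, had its 2 measured subunits lower. Sdhd, a membrane anchor, was at 3.67, 3.77 and 3.56 in the ischemia rats and at 4.64, 4.65 and 4.61 in the normal rats. The rats of each group lay close together and far from the other group. The change of -0.97 ± 0.10, 1.95-fold lower (adjusted p = 4.17e-08), passed under all 17 alternatives run for it, between -1.02 and -0.90. Sdhb, the iron-sulfur subunit, was at 4.76, 4.88 and 5.62 against 6.06, 5.51 and 5.34. Rat 3 lay inside the normal range, and the change of -0.55 ± 0.18 (adjusted p = 0.016) was -0.34 without normal rat 1 (adjusted p = 0.139), -0.39 without ischemia rat 1 (adjusted p = 0.104) and -0.45 without ischemia rat 2 (adjusted p = 0.0749).

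Complex III passes electrons from ubiquinol to cytochrome c. Uqcrb, an accessory subunit, was at -1.20, -1.09 and -1.32 in the ischemia rats and at -0.36, -0.31 and -0.45 in the normal rats, with no overlap. It changed by -0.83 ± 0.10 (adjusted p = 1.48e-07). Uqcrc2, a core subunit, was at 4.67, 4.79 and 4.67 against 5.53, 5.28 and 5.27, again with no overlap, and changed by -0.65 ± 0.10 (adjusted p = 2.07e-05). Uqcrh, the hinge protein, was at 4.53, 4.75 and 0.92 against 3.27, 5.09 and 5.20. Ischemia rat 3 and normal rat 1 were each far below the rest of their group, the difference was -1.12 ± 0.61 (adjusted p = 0.143), it was 0.12 without ischemia rat 3 (adjusted p = 0.845), and without the doubted arrays it fell by 0.50 (adjusted p = 0.0288).

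Complex IV reduces oxygen to water, and 5 of its 6 genes were below the normal mean, with a median of -0.18. Past the test 1 fell and 1, at the floor in normal rats, rose. Without ischemia rat 3, 3 fell and 0 rose, with a median of -0.37. Cox7b, a nuclear-encoded subunit, was at 4.80, 4.97 and 4.00 against 5.28, 5.46 and 5.43, a change of -0.80 ± 0.16 (adjusted p = 0.000296) with no overlap, or -0.51 without rat 3 (adjusted p = 0.00137). Cox4i1, the ubiquitous isoform of a subunit that binds ATP, was at 4.97, 5.35 and 5.95 against 5.64, 5.28 and 5.45. The groups overlapped throughout, and the difference was -0.03 ± 0.19 with a 95% interval from -0.42 to 0.36 (adjusted p = 0.913). Cox5a, another nuclear-encoded subunit, was at 4.46, 4.68 and 4.94 against 5.06, 4.90 and 4.93, a difference of -0.27 ± 0.13 (adjusted p = 0.113), or -0.39 without rat 3 (adjusted p = 0.0211). Cox7a2l, which helps join the complexes into supercomplexes, differed by -0.10 ± 0.16 (adjusted p = 0.662), or by -0.35 without rat 3 (adjusted p = 0.0383).

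The remaining complex IV genes are isoforms of heart and skeletal muscle and were dim. Cox8b was at -3.10, -1.15 and -2.50 against -0.62, -1.40 and -1.68, a difference of -1.02 ± 0.60 (adjusted p = 0.182). Cox6a2 was at the floor of -3.32 in all 3 normal rats of lot 1 and at -2.61, -3.27 and -2.86 in the ischemia rats. Its call as risen (adjusted p = 0.0238) is a step up from the floor, with no fold, and was lost without the doubted arrays (adjusted p = 0.0817), without ischemia rat 1 (adjusted p = 0.165), without ischemia rat 3 (adjusted p = 0.0523), and without normal rat 2 (adjusted p = 0.0543) or normal rat 3 (adjusted p = 0.0521). Of 13 skeletal muscle markers 5 were on the array, and their summed level, in multiples of the array median, was 2.74 to 2.77 in the ischemia rats and 4.14 to 5.48 in the normal rats. Of the 5, 3 fell and 0 rose, and their part in these values was not tested.

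The ATP synthase had 7 of 12 genes lower, with a median of -0.50. Of its catalytic head, Atp5f1a (the alpha subunit) was at 5.67, 5.82 and 4.05 against 5.75, 6.31 and 6.19. Rat 3 was again far below, and the change of -0.90 ± 0.27 (adjusted p = 0.00937) was -0.34 without that rat (adjusted p = 0.0973) and -0.51 without the doubted arrays (adjusted p = 0.00478). Atp5f1b (the beta subunit, which holds the catalytic sites) was at 5.63, 5.79 and 6.48 against 6.57, 6.18 and 5.99. Its difference was -0.28 ± 0.16 (adjusted p = 0.181), and without the doubted arrays it fell by 0.37 (adjusted p = 0.0124), and without ischemia rat 3 by 0.53 (adjusted p = 0.00274).

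In the central stalk, Atp5f1c (the gamma subunit) was at 4.83, 4.98 and 2.73 in the ischemia rats and at 5.07, 5.68 and 5.66 in the normal rats. The groups did not overlap, and the change was -1.29 ± 0.34, 2.44-fold lower (adjusted p = 0.00305), or -0.56 without ischemia rat 3 (adjusted p = 0.0128) and -0.76 without the doubted arrays (adjusted p = 6.66e-05). Atp5f1d (the delta subunit) differed by -0.32 ± 0.14 (adjusted p = 0.0812), or by -0.57 without ischemia rat 3 (adjusted p = 0.000139). The genes most like Atp5f1c over the means of the 9 groups were Park7 (r = 0.998), Rida (0.993), Fahd2a (0.990), Tceal8 (0.988) and Tmem183a (0.987). These means share the same arrays, and in all 5 genes ischemia rat 3 was the lowest of its group. Park7 was at 3.63, 3.77 and 1.90 in ischemia rats 1 to 3 and Tceal8 at 2.77, 2.74 and 0.69, the latter with rats 1 and 2 inside the normal range of 2.35 to 3.06.

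The c-ring, which turns as protons pass, is encoded by 3 genes that give the same mature protein, of which 1 fell with all rats and all 3 fell without ischemia rat 3. Atp5mc1 was at 4.86, 5.08 and 5.04 against 5.82, 5.79 and 5.56, with no overlap and a change of -0.73 ± 0.12 (adjusted p = 2.49e-05). Atp5mc2 was at 4.33, 4.45 and 5.24 against 5.32, 4.83 and 4.85, a difference of -0.32 ± 0.18 (adjusted p = 0.148). Atp5mc3 was at 5.80, 6.00 and 7.26 against 6.99, 6.31 and 6.22, a difference of -0.16 ± 0.25 (adjusted p = 0.655). For both of these rat 3 was the highest of its group. Without the doubted arrays Atp5mc2 changed by -0.45 (adjusted p = 0.00988) and Atp5mc3 by -0.37 (adjusted p = 0.0535). Without ischemia rat 3 alone the changes were -0.75 for Atp5mc1 (adjusted p = 5.15e-05), -0.61 for Atp5mc2 (adjusted p = 0.00167) and -0.61 for Atp5mc3 (adjusted p = 0.00839). The difference between these genes was not tested.

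In the rest of the enzyme Atp5mf (subunit f) was at 3.29, 3.58 and 2.03 against 3.31, 3.93 and 4.08. The change of -0.81 ± 0.26 (adjusted p = 0.0142) was -0.34 without ischemia rat 3 (adjusted p = 0.17), -0.65 without normal rat 3 (adjusted p = 0.078) and -0.73 without normal rat 2 (adjusted p = 0.0561). Atp5me (subunit e) was at 4.17, 4.34 and 2.74 against 3.88, 4.70 and 4.96 and fell by 0.77 (adjusted p = 0.0425), a call lost without rat 3, at -0.26 (adjusted p = 0.417), and after quantile normalization (adjusted p = 0.123). Further, of the peripheral stalk Atp5po fell by 0.59 and Atp5pd by 0.41. Atp5pb, also of that stalk, was at 4.73, 5.04 and 5.98 against 5.91, 5.35 and 5.37 and differed by -0.30 ± 0.20 (adjusted p = 0.242), or by -0.66 without rat 3 (adjusted p = 0.00067).

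**Figure D2:**
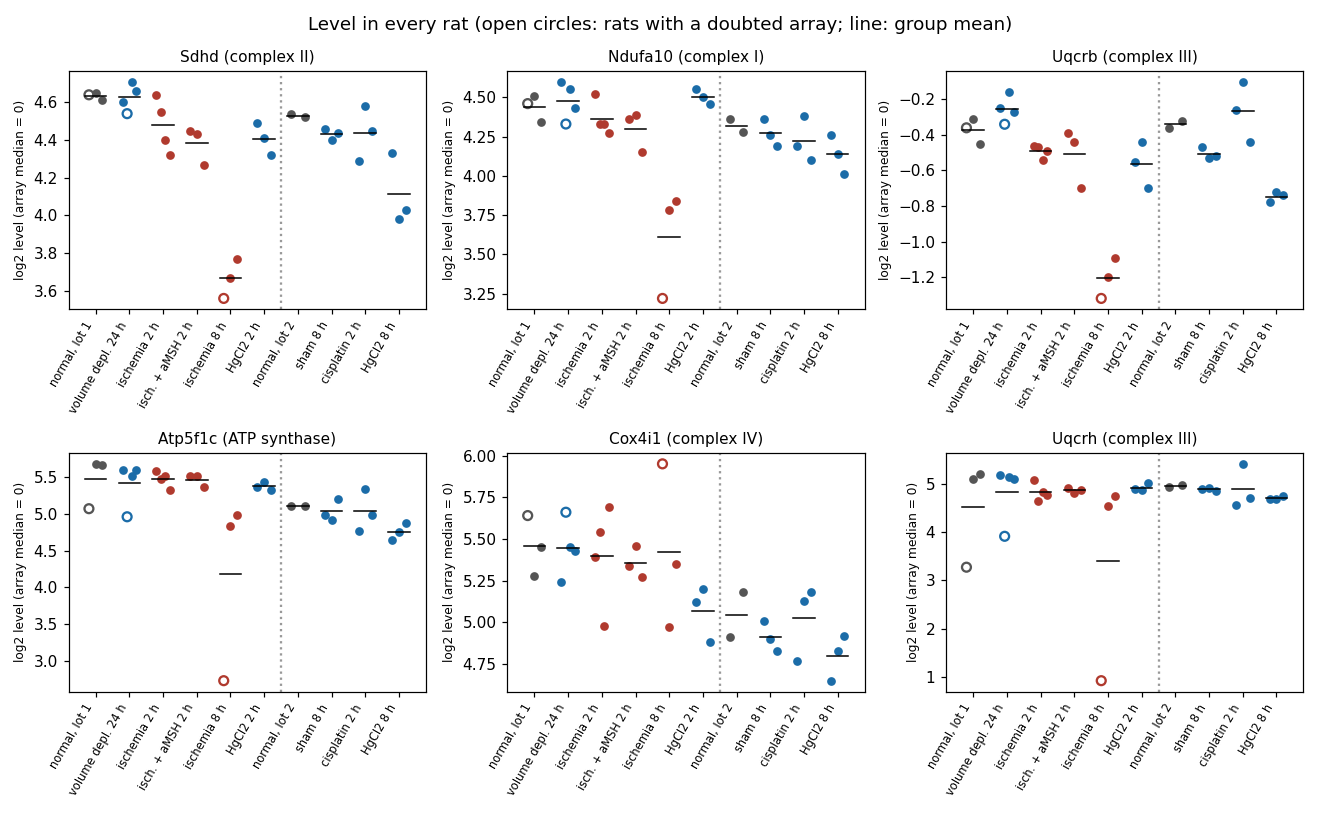
Log2 level of 6 genes (panels) in every rat, by group along the x axis, with lot 1 left and lot 2 right of the dotted line. Short lines are group means and open circles mark rats with a doubted array. Sdhd, Ndufa10 and Uqcrb have all 3 rats of the 8 h ischemia group below every normal rat, while Atp5f1c, Cox4i1 and Uqcrh have rat 3 away from rats 1 and 2.

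The doubted arrays shared a pattern over the members. Rat 3 of the 8 h ischemia group was below the mean of rats 1 and 2 for 22 members and above it for 21. Its deviations ran with those of normal rat 1 from normal rats 2 and 3 at r = 0.90 over the 43 members, with those of the doubted volume-depletion array at 0.95, and those of the normal rat ran with those of the volume-depletion array at 0.94. These correlations are over genes of the same arrays. The shared pattern is a ground for setting the arrays aside, so the correlations are a description and no separate support. In all 3 arrays 13 members were low and 19 high. Uqcrh, Ndufs6-ps1 and Atp5f1c were among the low ones (-3.72, -3.13 and -2.18 in ischemia rat 3) and Atp5mc3, Ndufb3 and Cox4i1 among the high ones (1.37, 1.22 and 0.79). The volume-depleted rat shows the pattern within 1 animal. Its doubted array minus its other array had an SD of 0.588 over the members, from -2.03 (Ndufs6-ps1) to 0.83 (Uqcrc2). The arrays of the other 4 such rats differed with SDs of 0.102 to 0.155. Over all probes the SD was also largest in the volume-depleted rat, at 0.457 against 0.177 to 0.303, so the difference was not confined to the members.

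**Figure D3:**
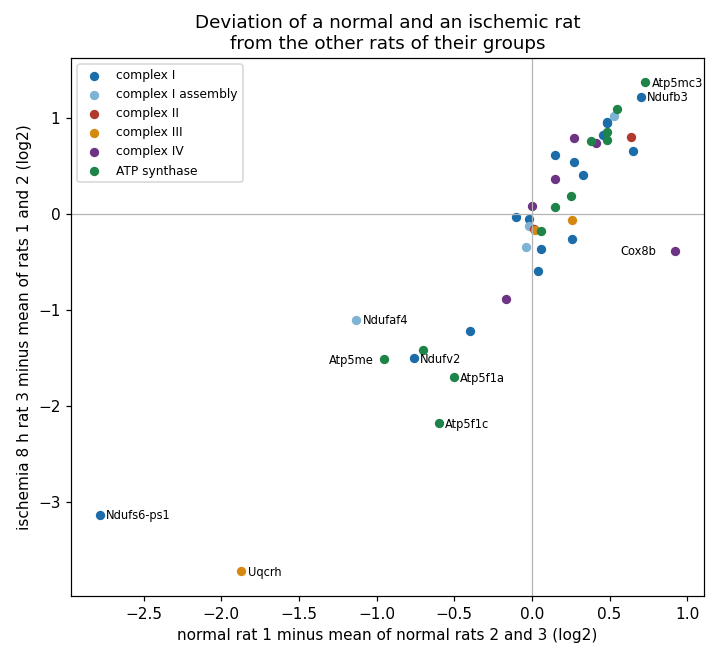
For each of the 43 genes (points, coloured by complex), the log2 deviation of normal rat 1 from normal rats 2 and 3 (x axis) against that of 8 h ischemia rat 3 from rats 1 and 2 (y axis). The points run together (r = 0.90), from Uqcrh and Ndufs6-ps1 at the lower left to Atp5mc3 at the upper right.

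The lower level after ischemia was in each rat. The median change over the members was -0.61 in rat 1, -0.47 in rat 2 and -0.46 in rat 3. In rat 3 the changes spread over the members with an SD of 1.01, against 0.44 and 0.38 in rats 1 and 2. The median change of all probes was -0.06, -0.03 and 0.23 in these rats. Without the doubted arrays 33 members fell and 1 rose, with no share of all probes given for that fit. Both readings called 26 members, Cox6a2 was called only with the doubted arrays, and Ndufa5, Ndufb11, Ndufaf4, Uqcrh, Atp5f1b, Atp5f1d, Atp5mc2 and Atp5pb only without them. Neither reading called Ndufa9, Ndufs6-ps1, Ndufaf8, Cox4i1, Cox5a, Cox7a2l, Cox8b or Atp5mc3. With only ischemia rat 3 left out 32 members fell and 1 rose, and 4 of these 8 were among those that fell: Ndufaf8 (-0.44, adjusted p = 0.02), Cox5a (-0.39, adjusted p = 0.0211), Cox7a2l (-0.35, adjusted p = 0.0383) and Atp5mc3 (-0.61, adjusted p = 0.00839).

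**Figure D4:**
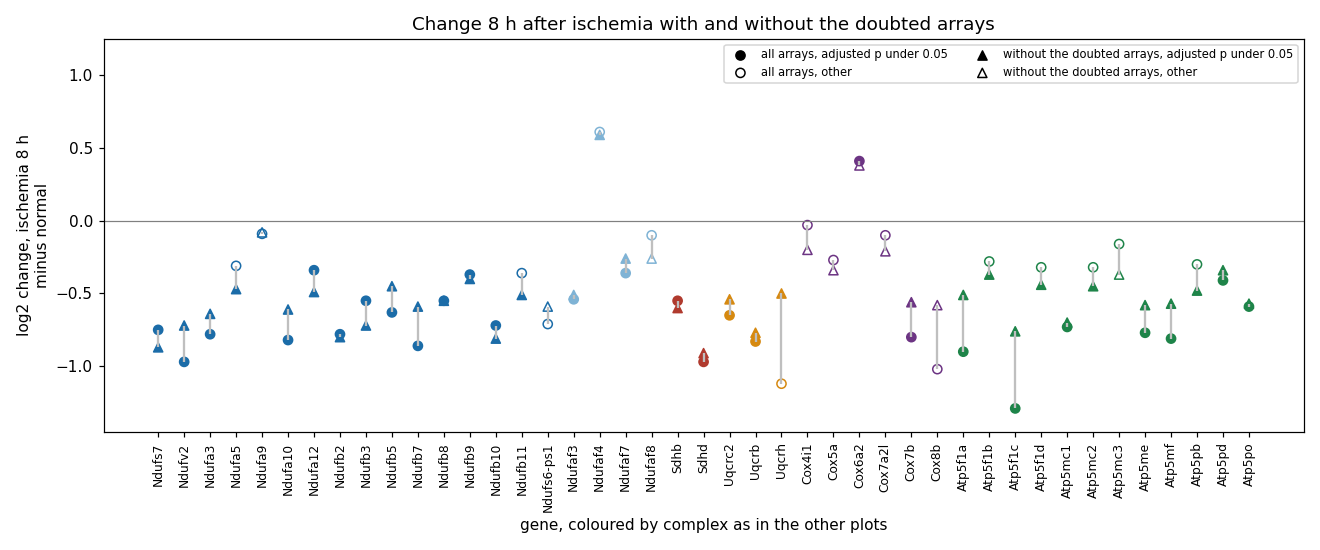
Log2 change 8 h after ischemia of each gene (x axis) with all arrays (circles) and without the doubted arrays (triangles), filled where the adjusted p was under 0.05. The readings differ most for Uqcrh (-1.12 and -0.50) and Atp5f1c (-1.29 and -0.76), and neither calls Cox4i1.

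At 2 h after ischemia 0 members had changed past the test. By limma 4 members had an unadjusted p under 0.05, while 14.7% of all probes changed. The median change was -0.12 over the members and -0.06 over all probes, and 74.4% of members and 59.2% of all probes were below the normal mean. Sdhd was at 4.64, 4.40, 4.55 and 4.32 (rats 1 to 4), a difference of -0.16 ± 0.10 (adjusted p = 0.331). Uqcrb differed by -0.12 ± 0.09 (adjusted p = 0.458), Atp5f1c by 0.01 ± 0.31 and Cox4i1 by -0.06 ± 0.18. The 2 and 8 h rats were then compared directly: 22 members were lower and 1 higher at 8 h, against 17.2% and 20.5% of all probes. Sdhd differed by -0.81 ± 0.10 (adjusted p = 3.65e-07), Uqcrb by -0.71 ± 0.09 (adjusted p = 8.72e-07), Ndufa10 by -0.75 ± 0.12 (adjusted p = 2.05e-05) and Atp5f1c by -1.29 ± 0.31 (adjusted p = 0.00197). In all 4 the 8 h rats lay below every 2 h rat. Without 8 h rat 3 the difference was -0.57 for Atp5f1c (adjusted p = 0.0104) and -0.76 for Sdhd (adjusted p = 3.16e-06). With only these groups fitted 6 members were called.

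Rats given alpha-MSH with ischemia had 2 members lower than normal at 2 h (6.61% of all probes fell). Atp5mc1 was at 5.18, 5.35 and 5.47 against 5.82, 5.79 and 5.56, a change of -0.39 ± 0.12 (adjusted p = 0.0317), and Uqcrc2 was at 4.89, 5.09 and 5.06 against 5.53, 5.28 and 5.27, a change of -0.34 ± 0.10 (adjusted p = 0.0301). In both genes the groups did not overlap. Without normal rat 1 or without alpha-MSH rat 1 the count was 0, without normal rat 2 or alpha-MSH rat 3 it was 1, and without normal rat 3 it was 4. Set against ischemia alone, which is the comparison that bears on the peptide, 0 members were called, 0 had an unadjusted limma p under 0.05, and 0.0% of all probes were called. The median difference was -0.11, with 36 of 43 members lower. Over all probes it was -0.01, with 54.7% lower.

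After mercuric chloride few members passed the test, though most were below normal. At 2 h 2 of 43 fell (4.61% of all probes fell): Ndufb9 by 0.41 (SE 0.12, adjusted p = 0.0418) and Ndufaf7 by 0.32 (SE 0.10, adjusted p = 0.0475). Ndufb9 was at 4.82, 5.04 and 4.78 against 5.51, 5.27 and 5.09, and Ndufaf7 at 1.38, 1.40 and 1.43 against 1.70, 1.74 and 1.74, with no overlap in either. The call of Ndufaf7 was lost when any of these 6 rats was left out (adjusted p from 0.0957 to 0.139). That of Ndufb9 held without normal rat 3 or mercuric chloride rat 2 and was lost without each of the others (adjusted p from 0.0895 to 0.231). With the replicate block the count was 0, with adjusted p = 0.0654 for Ndufb9 and 0.061 for Ndufaf7. By limma 18 of 43 members had an unadjusted p under 0.05, as had 2033 of all 9466 probes. The median change was -0.28 over the members and -0.05 over all probes. Below the normal mean were 81.4% of members and 61.4% of all probes. Proximal tubule markers had a median of -0.43 there, with 2 of 13 fallen and 0 risen, and their summed level was 395 to 428 times the array median against 495 to 735 in the normal rats, a part that was not tested.

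At 8 h 4 members fell, 9.3% of the set against 5.66% of all probes, and 0 rose. Ndufa3 was at 4.24, 4.24 and 4.44 against 4.81 and 4.94 in normal rats 11 and 12, a change of -0.56 ± 0.13 (adjusted p = 0.00355). Sham rats of that lot were at 4.55, 4.52 and 4.47, also below both normal rats (-0.36 ± 0.13, adjusted p = 0.453), and the mercuric chloride rats differed from them by -0.21 ± 0.11 (adjusted p = 0.272). Ndufaf7 was at 0.62, 0.86 and 0.74 against 1.29 and 1.20, a change of -0.51 ± 0.11 (adjusted p = 0.0032). Sdhd was at 3.98, 4.03 and 4.33 against 4.54 and 4.52, a change of -0.42 ± 0.11 (adjusted p = 0.0158), and rat 3 was nearest to normal. Uqcrb was at -0.72, -0.74 and -0.78 against -0.36 and -0.32, a change of -0.41 ± 0.11 (adjusted p = 0.0125). In all 4 the groups did not overlap.

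The other members did not pass the test, though most were below the normal mean. The median was -0.25 over the members and -0.03 over all probes. Of the members 41 of 43 were below the normal mean, as were 56.7% of all probes. All 3 rats lay below both normal rats for 28 members, which held for 26.3% of all probes. Sham rats, set against the same normal rats, had 37 of 43 members below the normal mean (54.1% of all probes). Set against the sham rats, 39 of 43 members were lower after mercuric chloride (52.8% of all probes), with a median of -0.19. All 12 ATP synthase genes were below normal, from -0.50 to -0.14, and 0 passed. Without either normal rat the count was 1, since the other is then the only normal rat of that lot. Without the doubted arrays, which enter this comparison only through the spread shared by all rats, 12 members fell. The share of all probes in that fit is not given, so this count is not read as a result about the members. Cox4i1 was at 4.83, 4.92 and 4.65 against 4.91 and 5.18, a difference of -0.25 ± 0.21 (adjusted p = 0.601). The change from 2 to 8 h of mercuric chloride, each from its own lot's normal rats, was called for 0 members, with 0 at an unadjusted limma p under 0.05 (0.693% of all probes changed).

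Cisplatin at 2 h, sham operation at 8 h and volume depletion at 24 h each had 0 members called by limma, with 0, 1 and 0 at an unadjusted p under 0.05. Few probes of any kind were called, namely 0.574%, 0.351% and 0.169%. The median changes were -0.03, -0.07 and -0.01. Below the normal mean were 60.5%, 86.0% and 55.8% of members, and 46.1%, 54.1% and 51.8% of all probes. Sdhd was at 4.45, 4.29 and 4.58 after cisplatin, at 4.40, 4.44 and 4.46 after sham operation, and at 4.54, 4.60, 4.71 and 4.66 after volume depletion. The first differences, against 4.54 and 4.52, were -0.10 ± 0.11 for both groups, and the last, against 4.64, 4.65 and 4.61, was -0.01 ± 0.10. Cisplatin rat 3 had a median change of 0.12 over the members and rats 1 and 2 of -0.10 and -0.12, so these rats lay on both sides of normal. Cisplatin and sham rats differed in 0 members, with 1 at an unadjusted limma p under 0.05 and 0.0105% of all probes called.

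**Figure D5:**
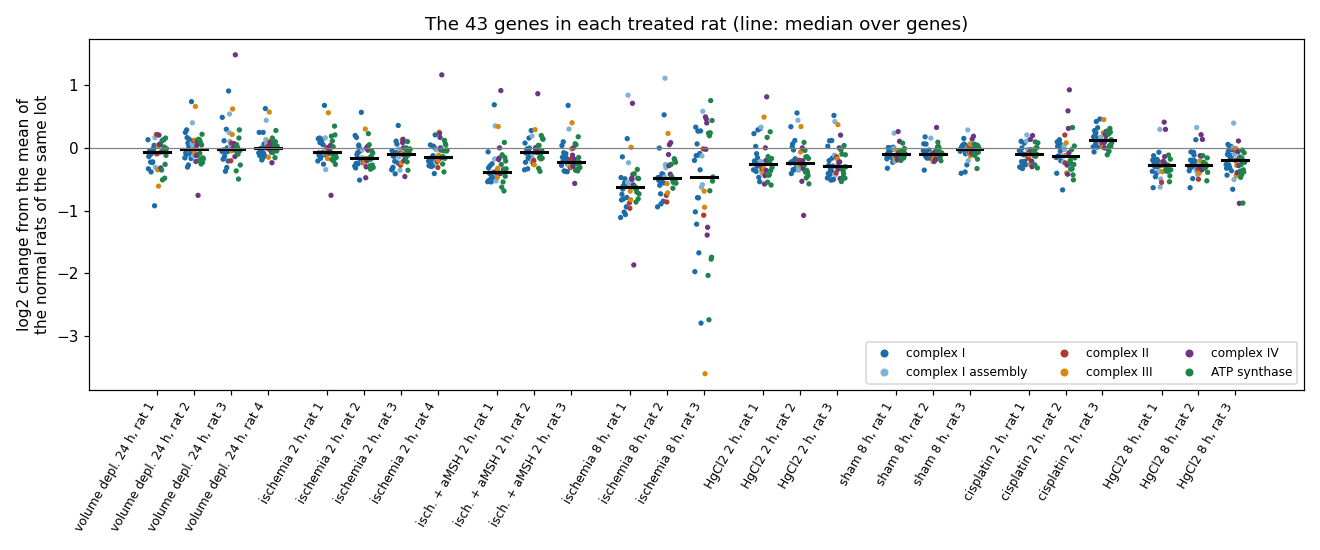
Log2 change of each of the 43 genes (points, coloured by complex) in each treated rat (x axis) from the mean of the normal rats of its lot, with a bar at the median over genes. The bars of the 8 h ischemia rats are at -0.61, -0.47 and -0.46, and the points of rat 3 spread from -3.60 (Uqcrh) to 0.76 (Atp5mc3).

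The 8 h ischemia rats were also compared directly with volume-depleted, sham-operated and 8 h mercuric chloride rats. Against volume depletion 24 members were lower and 1 higher (21.8% and 22.3% of all probes), with Uqcrb at -0.95 ± 0.09 (adjusted p = 5.5e-09) and Sdhd at -0.96 ± 0.10 (adjusted p = 1.51e-08). Against sham operation, across lots and so by the difference of each group's change from its own normal rats, 12 members were lower (11.0% of all probes): 6 of complex I and its assembly (Ndufs7, Ndufa10, Ndufb2, Ndufb5, Ndufb10 and Ndufaf3), Sdhd, Uqcrc2, Uqcrb, Cox7b, Atp5mc1 and Atp5po. Sdhd had the lowest p, with -0.87 ± 0.15 (adjusted p = 0.000186). The count was 20 without ischemia rat 3, 7 without sham rat 3 or normal rat 11, 4 without normal rat 12, and 3 with only the groups compared.

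Ischemia and mercuric chloride were both studied at 8 h. Their difference was called for 2 members, Ndufa10 at -0.64 ± 0.19 (adjusted p = 0.0271) and Sdhd at -0.55 ± 0.15 (adjusted p = 0.0201), both lower after ischemia, with 5.06% of all probes lower. The median difference over the members was -0.28, and 36 of 43 were lower after ischemia. Over all probes it was 0.04, with 46.1% lower. Without ischemia rat 2 or 3 the count was 4, without normal rat 2 it was 1, and it was 0 without normal rat 11, normal rat 12 or mercuric chloride rat 3. Against sham operation in their own lot, the 8 h mercuric chloride rats had 2 members lower (7.27% of all probes), Ndufaf7 at -0.36 ± 0.10 (adjusted p = 0.0173) and Sdhd at -0.32 ± 0.10 (adjusted p = 0.038). That count was 0 without sham rat 1, sham rat 2 or mercuric chloride rat 1, and 1 without sham rat 3 or mercuric chloride rat 2.

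Other genes of the mitochondrion gave a mixed picture 8 h after ischemia. Of 20 measured genes of cytochrome c, ubiquinone synthesis and assembly of the complexes, 10 fell and 0 rose (median -0.40), among them Coq9 (-1.10 ± 0.11), which serves ubiquinone synthesis, Etfb (-1.40 ± 0.48), an electron transfer flavoprotein subunit, Nubpl (-0.90 ± 0.15), an iron-sulfur factor of complex I, and Atpaf2 (-0.70 ± 0.11), an assembly factor of the ATP synthase. Of 15 genes of the tricarboxylic acid cycle and pyruvate dehydrogenase 6 fell and 2 rose (median -0.29). The 2 that rose regulate pyruvate dehydrogenase in opposite senses, the phosphatase Pdp1 (1.58 ± 0.14) and the kinase Pdk4 (1.24 ± 0.47), while the kinase Pdk2 fell (-1.32 ± 0.26). Of 65 genes of the mitochondrial ribosome, import and protein folding 21 fell and 5 rose (median -0.19). The chaperonin genes Hspd1 (0.84 ± 0.12) and Hspe1 (0.53 ± 0.19) were among those that rose.

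Beside these counts stand the 20.9% of all probes that fell and the 20.8% that rose, and the shares of the smaller lists that follow are not read as a result. Carriers and porins had 3 of 11 lower and 1 higher (median -0.27), with the ADP/ATP carrier Slc25a5 at -0.46 ± 0.14 and the uncoupling protein Ucp2 at 0.59 ± 0.16. Of 9 regulators of mitochondrial biogenesis and genome upkeep 3 rose and 2 fell. The coactivators Pprc1 (2.31 ± 0.11, adjusted p = 1.21e-13) and Ppargc1a (1.21 ± 0.24, adjusted p = 0.000196) rose, as did Gabpb1 (0.55 ± 0.13), a subunit of the GABP factor, while the deacetylase Sirt3 fell (-1.20 ± 0.18). Ppargc1a was 1.99 ± 0.22 above normal at 2 h of ischemia (adjusted p = 4.61e-07), when 0 members were called. Tfam, the mitochondrial transcription factor, differed at 8 h by 0.11 ± 0.12 (adjusted p = 0.458). Of 7 antioxidant enzymes 1 rose, Sod2 (0.77 ± 0.30), and 1 fell, Nnt (-0.85 ± 0.17), and of 5 genes of mitochondrial dynamics and mitophagy 3 fell and 0 rose. The 2 measured core genes of complex I, Ndufs7 and Ndufv2, both fell, as given above.

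Tubule markers were mostly lower 8 h after ischemia, as the members were, and leukocyte markers were not. Of 13 tested proximal tubule markers 9 fell and 0 rose 8 h after ischemia (median -0.96), and the summed level of the 14 on the array, in multiples of the array median, was 295 to 626 against 495 to 735 in the normal rats. The sodium-proton exchanger Slc9a3 changed by -2.39 ± 0.34 and the water channel Aqp1 by -1.03 ± 0.15. Of 12 distal markers 7 fell and 1 rose (median -0.71), with the cotransporter Slc12a1 at -1.91 ± 0.22. Of 14 leukocyte markers 5 rose and 0 fell, with a median of 0.04 over the 14. Among those that rose were S100a9 (5.02 ± 0.46) and Cd14 (2.00 ± 0.26). Summed levels were 70.8 to 89.8 against 57.2 to 76.3, with Cd4 at the floor in most rats. After 8 h of mercuric chloride 5 of 13 proximal tubule markers fell (median -0.54, summed level 309 to 380 against 493 to 500). Of 12 distal markers 0 were called there, with a median of 0.03. The part of these cell types in the members' changes was not tested.

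Of the other lists at 8 h of ischemia, endothelial markers had 2 risen and 3 fallen of 8 (median -0.11). Red blood cell markers had 1 and 1 of 3 (median -0.19). Glomerular (4, median 0.33), fat (8, median -0.10) and adrenal (2, median 0.09) markers had 0 called. Synpo of the glomerulus, Plin1 and Lep of fat and Cyp11b1 of the adrenal gland were at the floor in most rats.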

How the data were processed

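CodeLink arrays (36, with 9911 probes each) carried kidney RNA from 31 rats. The deposited values were read as 2 to the power of a median-scaled intensity (unit: other), since 99.39% of 353337 log2 values were whole multiples of 0.0001 within 1e-06 and array medians of log2 were 0.9992 to 1. This reading was made after the values were seen and replaces the linear intensity assumed at first. How the authors scanned, corrected and scaled the arrays is unstated in the labels, and 0.969% of values were missing. The column of sham rat 3 was offset by 2 lines (r with the median array 0.0654 as deposited, 0.985 after shifting) and was used shifted.

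Each array was divided by its median, floored at 0.1 and put on the log2 scale, and arrays of a rat were averaged. Probes above the floor in 3 rats were tested with limma 3.58.1 (R 4.3.3, statmod 1.5.0), fitting all groups and lot together (21 residual degrees of freedom), with Benjamini-Hochberg adjustment over all probes. Probe names come from the platform annotation (7229 probes with 1 symbol, 21 with several, 2661 with none). The procedure was tested on simulated data. The labels do not say that rats of a group were handled separately beyond being separate animals, and the number of arrays limits the precision.

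Members and gene lists were chosen with earlier results of these data known. Named with values are the defining subunits, tissue isoforms, and in each comparison with normal rats up to 5 risen and 8 fallen members with the largest called change; other genes named were chosen after their values were seen. Alternatives covered scaling, floor, filter, lot, the order of sham rat 3, doubted arrays, duplicate arrays, the replicate block, the groups in the fit and each rat left out.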

Additional observations from a re-analysis of the deposited data

Results flagged for a closer look

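For the 21 named members, 62 sets of values in groups of 4 or 5 rats were examined, and in 4 a rat stood apart from the others by Dixon's criterion, and chance gives about 1 in 20. Volume-depleted rat 1 was low for Atp5f1c, at a log2 level of 4.96 with the nearest rat at 5.52, and for Atp5mf, at 3.51 with the nearest at 3.99. Normal rat 1 was high for Atp5mc3, at 6.99 with the nearest at 6.31. Normal rat 11 was at -3.20 for Cox6a2, while the other normal rats were at the floor of -3.32. The first 3 of these values come from rats with a doubted array.

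The change after ischemia differed between 2 and 8 h, by the test of the difference itself, for 23 members. Among the named genes the 8 h level minus the 2 h level was -0.97 for Ndufv2, -0.52 for Ndufa3, -0.75 for Ndufa10, -0.89 for Ndufb7, -0.34 for Ndufb9, -0.81 for Sdhd, -0.44 for Uqcrc2, -0.71 for Uqcrb, -0.98 for Atp5f1a, -1.29 for Atp5f1c, -0.54 for Atp5mc1 and -0.82 for Atp5mf. For Cox6a2 it was 0.41, from the floor. Without 8 h rat 3 some of these values were smaller by over 1.5 times: -0.48 for Ndufv2 (adjusted p = 0.0676), -0.49 for Ndufb7 (adjusted p = 0.0121), -0.41 for Atp5f1a (adjusted p = 0.0411), -0.57 for Atp5f1c (adjusted p = 0.0104) and -0.35 for Atp5mf (adjusted p = 0.147). Those of Ndufv2 and Atp5mf then no longer passed.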

How the results depend on the processing

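The fall of Sdhd at 8 h of ischemia passed under all 17 alternatives. For named genes called against normal rats, 289 alternative values kept the call, 92 lost it and 0 reversed. Named genes not called are outside this tally, and some gained a call. At 8 h of ischemia Cox5a, Atp5f1b, Atp5mc2 and Atp5mc3 passed without ischemia rat 3. The counts of called members moved as follows, without shares of all probes beside them, so they describe the calls only. At 2 h of ischemia (0) the count was 1 after quantile normalization, with no lot term and without the doubted arrays. With alpha-MSH (2) it was 0 with sham rat 3 in the deposited order, without the doubted arrays and with only the groups compared. At 8 h of ischemia (27) it was 2 with the deposited order and 7 with only the groups compared. At 2 h of mercuric chloride (2) it was 1 after quantile normalization, 6 with a floor of 0.5, 5 with no filter on dim probes, 5 with no lot term, 4 with lot as a random block, and 0 with the deposited order or only the groups compared. At 8 h (4) it was 13 with no lot term, 7 with lot as a random block, 0 with the deposited order and 12 without the doubted arrays. For sham operation (0) it was 1 with no lot term. For 8 against 2 h of ischemia (23) it was 1 with the deposited order and 6 with only the groups compared, and against volume depletion (25) 4 and 11. For 8 against 2 h of mercuric chloride (0) it was 4 with no lot term and 1 with lot as a random block. For mercuric chloride against sham (2) it was 1 after quantile normalization, with either lot setting and with the first array of a rat, and 8 without the doubted arrays. For ischemia against sham (12) it was 21 with no lot term, 0 with the deposited order and 3 with only the groups compared, and for ischemia against mercuric chloride (2) it was 11, 0 and 0, with 7 for lot as a random block and 4 without the doubted arrays. The deposited order puts other probes' values under each name in sham rat 3, which widens the shared spread.

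The members' median moved at 2 h of ischemia (-0.12) to -0.04 with no lot term and -0.06 without the doubted arrays. At 2 h of mercuric chloride (-0.28) it was -0.15 after quantile normalization, -0.20 with no lot term, -0.21 with lot as a random block and -0.21 without the doubted arrays. At 8 h (-0.25) it was -0.36 and -0.32 with these lot settings. For sham (-0.07) it was -0.16, -0.14 and, in the deposited order, -1.08, and for volume depletion (-0.01) 0.08 and 0.05, with 0.03 after quantile normalization and 0.01 without the doubted arrays.

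Leaving out each rat in turn gave counts of 22 to 33 at 8 h of ischemia, 20 to 31 against 2 h, 21 to 33 against volume depletion, 4 to 20 against sham and 0 to 4 against mercuric chloride. It gave 0 to 4 with alpha-MSH, 0 to 2 at 2 h and 1 to 5 at 8 h of mercuric chloride, and 0 to 3 for the latter against sham. Medians ran from -0.16 to -0.06 at 2 h of ischemia, where -0.06 came without normal rat 1, from -0.32 to -0.21 at 2 h of mercuric chloride and from -0.07 to 0.02 for volume depletion. With the replicate block 24 members were called at 8 h of ischemia and 0 at 2 h of mercuric chloride. Deviations of rats with the same number correlated at a median of 0.0188 over 109 pairs, with 33 over 0.1. For rats with different numbers the median was -0.00456 over 322 pairs, with 69 over 0.1. The labels do not pair rats by number, and such medians cannot exclude that some rats were paired. The block could not be fitted where normal rats 11 and 12 are needed. Each member has 1 probe, so the choice of probe changes nothing.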
